A study of Mus musculus with 9 samples.

Results

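The genes described here are the 31 enzymes and regulators of cholesterol and fatty acid synthesis on a list of symbols, kept where the mean over 9 microglia libraries was at least 10 normalized counts. All 31 passed that filter, out of 23134 genes in the table and 16575 genes tested. They comprised 8 genes of the mevalonate branch and 11 enzymes that make squalene (Fdft1) and turn it into cholesterol. Those 11 are named squalene to cholesterol below. The others were 6 regulators and carriers, and 6 enzymes of fatty acid synthesis, elongation and desaturation. The rule uses the mean over all libraries and no difference between groups, and the list was drawn up with earlier results of these data known.

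Cells build cholesterol from acetyl-CoA through mevalonate, isoprenoid diphosphates and squalene, and build fatty acids from malonyl-CoA. When membrane sterol is low, SCAP carries the SREBP transcription factors out of the endoplasmic reticulum, where INSIG proteins otherwise hold them, and the released factors switch on most genes of both pathways. In the brain cholesterol is made locally, mainly by astrocytes and oligodendrocytes, while microglia also take up sterol from debris and export it through LXR-controlled transporters.

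Microglia were profiled by RNA sequencing from mice aged 2 to 3 months in 3 groups of 3 libraries. Control mice received saline, control mice received lipopolysaccharide (LPS, a bacterial cell wall component that causes inflammation) at 5 mg/kg into the peritoneum, and mice whose astrocytes lacked the chromatin remodeller gene Chd8 through a conditional knockout (cKO) received the same LPS. Brains were taken 72 h after LPS, cortex and hippocampus were dissociated, astrocytes were removed on ACSA-2 beads and CD11b-positive cells were then collected. The knockout was made in astrocytes, not in the cells sequenced, and no source used here gives the driver of the deletion or the alleles of the control mice. The word saline stands in all 9 titles, those of the 6 LPS libraries included, and the 3 cKO titles name no LPS, so groups were taken from the genotype and treatment labels. The titles also name cortex alone as the tissue, without hippocampus. The labels do not say that each library came from a separate mouse, so the p-values measure the spread between these libraries, which may be technical.

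Recovered depth ranged from 10845937 to 86571481 reads per library. Control saline library 3 was the shallowest, and cKO LPS library 3 was the deepest. The smallest read number behind any of the 31 genes was 20, for Idi1 in control saline library 3. Homeostatic microglia markers summed to 624785 to 1227137 normalized counts, and none of the 10 was below 8363 in any library. Chd8 was at 5214 to 6219 in cKO LPS and 5408 to 5842 in control LPS, which does not check a deletion made in other cells. In the genes described here, control LPS library 1 and cKO LPS library 3 stood highest above the other libraries of their groups. Without control LPS library 1 the log2 fold change of 8 of the 31 genes changed sign in control LPS against saline and that of 17 in cKO LPS against control LPS. Without cKO LPS library 3 it did so for 3 genes in cKO LPS against control LPS and 5 in cKO LPS against saline. None of these genes had passed limma's test. These are bulk libraries of sorted cells, in which fewer cells of a type and less RNA per cell cannot be told apart.

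The promoters of 4 of the genes are shown because these genes carry the results: Mvd passed the test after LPS, Idi1 and Insig1 differed widely between cKO LPS libraries, and Hmgcs1 holds the motif best known from SREBP targets. Each window runs from 250 bases before to 50 bases after the transcription start, 5′ to 3′ on the gene's strand, from RefSeq on GRCm38.p6. Capitals mark matches on either strand to TCACNCCAC (a sterol regulatory element consensus), CCAAT (the letters bound by NF-Y, read ATTGG on the other strand) or CACGTG (an E-box). The Mvd window is chr8:122443373-122443672, minus strand. The Idi1 window is chr13:8885356-8885655, plus strand. The Insig1 window is chr5:28071162-28071461, plus strand, and the Hmgcs1 window is chr13:119690101-119690400, plus strand.
Mvd: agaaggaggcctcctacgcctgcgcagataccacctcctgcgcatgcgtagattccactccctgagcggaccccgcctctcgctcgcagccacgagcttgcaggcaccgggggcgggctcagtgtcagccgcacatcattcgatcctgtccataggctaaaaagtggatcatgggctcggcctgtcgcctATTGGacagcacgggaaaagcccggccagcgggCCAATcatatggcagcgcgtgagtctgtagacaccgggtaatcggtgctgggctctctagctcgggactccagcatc
Idi1: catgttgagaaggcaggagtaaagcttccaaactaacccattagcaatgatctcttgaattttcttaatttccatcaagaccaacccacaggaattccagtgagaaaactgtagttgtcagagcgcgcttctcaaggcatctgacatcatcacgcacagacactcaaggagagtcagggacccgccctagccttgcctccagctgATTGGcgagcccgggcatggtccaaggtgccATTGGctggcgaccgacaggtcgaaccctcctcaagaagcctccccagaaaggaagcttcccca
Insig1: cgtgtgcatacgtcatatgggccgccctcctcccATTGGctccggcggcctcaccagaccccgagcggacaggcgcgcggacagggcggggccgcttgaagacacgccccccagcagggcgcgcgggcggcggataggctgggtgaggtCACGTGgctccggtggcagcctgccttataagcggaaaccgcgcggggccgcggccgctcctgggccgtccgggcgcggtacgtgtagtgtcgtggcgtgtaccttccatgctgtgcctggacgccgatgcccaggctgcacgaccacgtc
Hmgcs1: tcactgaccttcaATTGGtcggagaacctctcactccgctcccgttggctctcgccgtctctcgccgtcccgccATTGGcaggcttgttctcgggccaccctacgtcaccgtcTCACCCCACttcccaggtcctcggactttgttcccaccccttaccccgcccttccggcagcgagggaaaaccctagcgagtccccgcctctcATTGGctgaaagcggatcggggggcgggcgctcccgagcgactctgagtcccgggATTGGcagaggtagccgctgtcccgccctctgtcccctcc

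A promoter window was found in the RefSeq table for 25 of the 31 genes, and the other 6 are Fdps, Fdft1, Sqle, Stard4, Scd2 and Fads1. The TCACNCCAC motif was present in 1 of the 25, Hmgcs1, where it begins 137 bases before the start, which is 4.0% against 1.44% of 27025 genes with a window. CCAAT was present in 20 of the 25 (80.0%), against 41.1% of all genes with a window. The E-box CACGTG was present in 5 of the 25 (20.0%), against 8.09% of genes, and its holders were Hsd17b7, Insig1, Dhcr7, Sc5d and Scap. TCACNCCAC and CACGTG can share their letters CAC, but in the 4 windows printed no match shares a base with another. These matches describe letters in the windows and say nothing about binding.

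Per kilobase of exon, the 31 genes spanned a wide range of levels. The fatty acid desaturases Scd2 and Fads1 were the most abundant, at means of 1920.1 and 1456 normalized counts per kb over the 9 libraries. In cKO LPS the order of these genes was reversed, at 1423 ± 351 (SD, n = 3) for Scd2 and 1574 ± 151 for Fads1, and in control LPS the Scd2 mean of 2136 ± 1508 rested on library 1. Over the 9 libraries they were followed by the sterol isomerase Ebp at 905 and the SREBP escort Scap at 704 normalized counts per kb. The lowest were the isoprenoid isomerase Idi1 at 20.8 and the sterol ketoreductase Hsd17b7 at 24.5 normalized counts per kb. Between Ebp and Scap, and between Idi1 and Hsd17b7, the difference in order was within the spread of at least one group. For Fdps and Fdft1 the values are uncertain, since Gm43738 covers 77.4% of the exon bases of Fdps on the same strand and Ctsb covers 20.9% of those of Fdft1 on the opposite strand, and no source used here says whether counting used the strand. The other shared exon bases were 4.22% of Cyp51 (Akap9), 2.54% of Srebf1 (Rai1) and 0.826% of Tm7sf2 (Vps51).

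**Figure D1:**
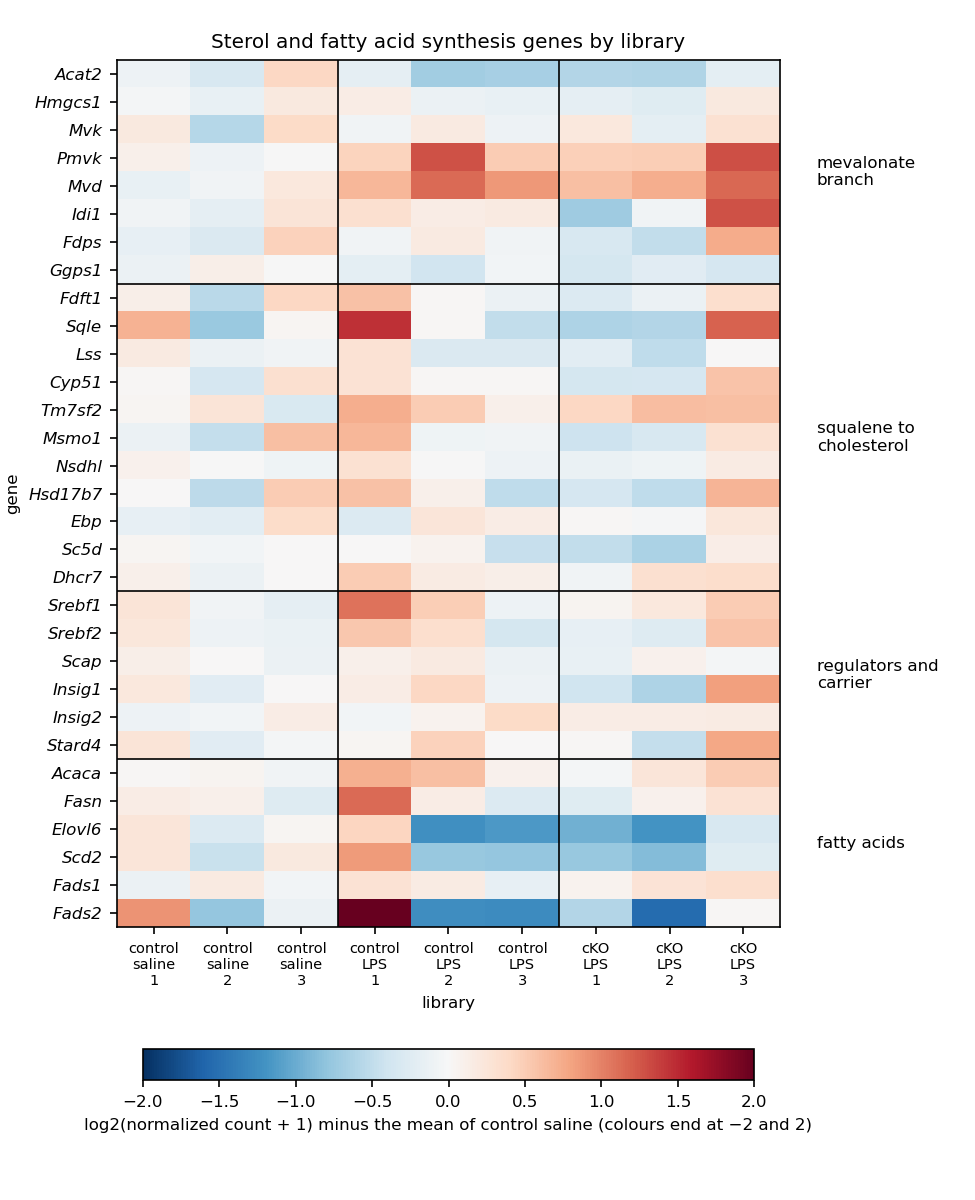
Each row is a gene and each column a library; colour is log2(normalized count + 1) minus the mean of the 3 control saline libraries, with colours ending at -2 and 2. Mvd and Pmvk are red in all 6 LPS libraries, control LPS library 1 is red across the fatty acid genes, and cKO LPS library 3 is redder than its 2 neighbours in 28 of 31 genes.

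The first comparison asked what LPS did to these genes in microglia of control mice. Of the 31 genes 1 rose, Mvd, and none fell, beside 5.60% of all 16575 tested genes called in either direction (4.68% higher and 0.923% lower). Unadjusted p was under 0.05 for 3 of the 31, namely Mvd, Pmvk and Acaca (9.68%), as it was for 3110 of the 16575 tested genes (18.8%). The median log2 fold change of the 31 genes was 0.13, against 0.02 over all tested genes, and single values ran from -0.65 (Elovl6) to 0.89 (Mvd). For 20 of the 31 (64.5%), the 95% interval lay within -1 and 1 on the log2 scale, as it did for 51.9% of all tested genes. Mvd, Pmvk, Dhcr7 and Acaca were higher in every control LPS library than in every saline library, which is 4 of 31 where 13.4% of tested genes showed this, and no member was lower throughout, where 8.23% of tested genes were (21.7% either way).

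In the mevalonate branch, Mvd encodes mevalonate diphosphate decarboxylase, which makes isopentenyl diphosphate, the building block of all isoprenoids. It was measured at 258, 274 and 334 normalized counts in saline controls, 453, 631 and 525 in LPS controls and 435, 474 and 639.7 in LPS-treated cKO mice. All 6 LPS libraries lay above all 3 saline libraries, by 1.85-fold in control LPS on the fitted scale. The log2 fold change was 0.89 (SE 0.21, limma adjusted p = 0.0396), with a 95% interval of 0.42 to 1.35. The authors' deposited table gave 0.91 with an adjusted p of 0.00248. Its call was lost in edgeR's quasi-likelihood test (adjusted p = 0.0546), with the 6 libraries alone (0.0832), after quantile normalization (0.0934), and without any of the 3 saline libraries, control LPS libraries 2 or 3, or cKO LPS libraries 1 or 2, with adjusted p at most 0.159. Its log2 fold change stayed between 0.76 and 1.04 in the 21 alternatives.

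Pmvk, the phosphomevalonate kinase that acts just before Mvd, was measured at 441, 385 and 411 normalized counts in saline controls, 559, 996 and 588 in LPS controls and 575, 582 and 1010.2 in LPS-treated cKO mice. Its 3 control LPS libraries were all above saline, with library 2 highest, and the log2 fold change was 0.74 (SE 0.28, limma adjusted p = 0.182). Acat2, the thiolase that condenses acetyl-CoA at the head of the pathway, was at 337, 291 and 485 normalized counts in saline controls, 321, 224 and 229 in LPS controls and 240.0, 239 and 315 in LPS-treated cKO mice. The groups overlapped through control LPS library 1, and the log2 fold change of -0.51 (SE 0.25, limma adjusted p = 0.316) did not pass the test. Hmgcs1, the cytosolic HMG-CoA synthase whose promoter carries the sterol motif shown above, was at 1269, 1176 and 1486 in saline controls, 1441, 1205 and 1171 in LPS controls and 1156, 1103 and 1489.8 in LPS-treated cKO mice. Its groups overlapped fully, at a log2 fold change of -0.04 with a 95% interval of -0.40 to 0.31. Idi1, which interconverts the isoprenoid diphosphates, was at 51.3, 47.1 and 64.2 normalized counts in saline controls, 67.5, 59.8 and 60.7 in LPS controls and 32.4, 51.4 and 132 in LPS-treated cKO mice, and its log2 fold change was 0.22 (-0.85 to 1.28). Mvk, Fdps and Ggps1, encoding mevalonate kinase and the farnesyl and geranylgeranyl diphosphate synthases, had log2 fold changes of 0.00, 0.01 and -0.21, none past the test.

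Among the 11 enzymes from squalene to cholesterol none passed the test in this comparison, and log2 fold changes ran from -0.13 to 0.44 with a median of 0.11. Of the 11 values 2 were negative, and without control LPS library 1 it was 7, with a median of -0.05. The sign turned there for Sqle (-0.23), Fdft1 (-0.05), Msmo1 (-0.08), Nsdhl (-0.05) and Hsd17b7 (-0.21). Tm7sf2, a sterol reductase, was at 262, 305 and 205 normalized counts in saline controls, 421, 361 and 271 in LPS controls and 337, 388 and 387 in LPS-treated cKO mice. Control LPS library 3 lay inside the saline range, and the log2 fold change was 0.44 (SE 0.22, limma adjusted p = 0.328). Dhcr7, the reductase of the last step to cholesterol, was at 810.5, 701 and 764 in saline controls, 1072, 849 and 817 in LPS controls and 723, 950.0 and 963 in LPS-treated cKO mice. Its control LPS libraries were all above saline, by as little as 817 against 810.5, at a log2 fold change of 0.26 (SE 0.16, limma adjusted p = 0.450).

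Sqle, squalene epoxidase and a rate-controlling step of the pathway, was at 298, 109 and 189 normalized counts in saline controls, 509, 187 and 131 in LPS controls and 119, 122 and 416 in LPS-treated cKO mice. Library 1 was the highest of control LPS and library 3 the lowest, a wider span than in saline, and the 95% interval of its log2 fold change (0.33) ran from -1.10 to 1.77. Fdft1, squalene synthase, was at 626, 396 and 770.1 normalized counts in saline controls, 864, 583 and 531 in LPS controls and 476, 531 and 726 in LPS-treated cKO mice, and Cyp51, the lanosterol demethylase, at 587, 456 and 722 in saline controls, 710.3, 586 and 590.3 in LPS controls and 455, 457 and 863 in LPS-treated cKO mice. Both were highest among control LPS in library 1 and overlapped between groups, with log2 fold changes of 0.16 and 0.11. The other 6 (Lss, Msmo1, Nsdhl, Hsd17b7, Ebp and Sc5d) had log2 fold changes from -0.13 (Sc5d) to 0.17 (Msmo1), and their groups overlapped.

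Of the 6 regulators and carriers none passed the test. Srebf1, whose SREBP-1 proteins drive mainly fatty acid genes, was at 2406, 1926 and 1774 normalized counts in saline controls, 4307, 2855 and 1888 in LPS controls and 2095, 2334 and 2875 in LPS-treated cKO mice. Libraries 1 and 2 of control LPS were above all saline libraries and library 3 was not, and the log2 fold change was 0.50 (SE 0.27, limma adjusted p = 0.372). Srebf2, whose product drives mainly sterol genes, was at 2499.6, 1988 and 1948 in saline controls, 3091, 2699 and 1668 in LPS controls and 1908, 1774 and 3173 in LPS-treated cKO mice, again with library 3 of control LPS below the others, at a log2 fold change of 0.17, and -0.01 without library 1. Insig1, an INSIG anchor and itself a sensitive SREBP target, was at 1046, 769 and 905 normalized counts in saline controls, 995, 1197 and 838 in LPS controls and 684, 589 and 1589 in LPS-treated cKO mice. Its control saline and control LPS libraries overlapped, at a log2 fold change of 0.15 (-0.61 to 0.91). Stard4, a soluble sterol carrier, was at 299, 213 and 244 in saline controls, 257, 343 and 252 in LPS controls and 253, 179 and 428 in LPS-treated cKO mice, and its log2 fold change was 0.17. Insig2, the second INSIG anchor, was at 949, 979.7 and 1133 in saline controls, 976, 1064 and 1327 in LPS controls and 1124, 1129 and 1140.1 in LPS-treated cKO mice, and Scap at 3195, 2969.5 and 2708 in saline controls, 3168, 3346 and 2713 in LPS controls and 2656, 3139.6 and 2875 in LPS-treated cKO mice. Neither gene's groups separated, with log2 fold changes of 0.13 and 0.05.

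Among the fatty acid enzymes, 1 library decided several of the values, and none passed limma's test with all libraries weighted alike. Elovl6, the elongase that extends palmitate, was at 319, 222 and 276 normalized counts in saline controls, 363, 114 and 120.5 in LPS controls and 137, 117 and 216 in LPS-treated cKO mice. Control LPS libraries 2 and 3 were below every saline library, whereas library 1 was above them all. With all libraries the log2 fold change was -0.65 (SE 0.44, limma adjusted p = 0.489), and without control LPS library 1 Elovl6 fell, by 1.19 on the log2 scale (limma adjusted p = 0.0378). With all 9 libraries and array weights, which give less weight to libraries far from their group, it fell too (-1.13, limma adjusted p = 0.0414). Without control LPS library 1, Mvd was also called, 11.0% of all tested genes were called in either direction, and the median of the 31 genes was 0.00. Without cKO LPS library 3 as well, Pmvk joined Mvd among the genes that rose (0.89, limma adjusted p = 0.0430), beside 11.5% of all tested genes called.

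Scd2, the main brain isoform of stearoyl-CoA desaturase, was at 13911, 8670.3 and 13432 normalized counts in saline controls, 21149, 6947 and 6862 in LPS controls and 6921, 6417 and 9957 in LPS-treated cKO mice. Here too control LPS library 1 was the highest of all 9 and libraries 2 and 3 lay below every saline library. The log2 fold change was -0.23 with all libraries and -0.77 without library 1 (limma adjusted p = 0.0818). Fads2, the desaturase that starts polyunsaturated fatty acid synthesis, was at 685, 215 and 340.1 normalized counts in saline controls, 3193, 155 and 154 in LPS controls and 245, 126 and 374 in LPS-treated cKO mice. The 3193 of control LPS library 1 stood far above the other 8 libraries, and the log2 fold change went from 0.20 to -1.25 without it (adjusted p = 0.161 by limma). The authors' deposited table gave 1.50 for Fads2 here (adjusted p = 0.556) and -2.23 between cKO LPS and control LPS (adjusted p = 1.00).

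Fasn, fatty acid synthase, was at 2149, 2066 and 1617 normalized counts in saline controls, 4243, 2130.0 and 1592 in LPS controls and 1624, 2055 and 2364 in LPS-treated cKO mice, and Acaca, the acetyl-CoA carboxylase that makes malonyl-CoA, at 662, 676 and 622 in saline controls, 1071, 987 and 693 in LPS controls and 635, 769.8 and 926 in LPS-treated cKO mice. Control LPS library 1 was the highest in both. Their log2 fold changes were 0.33 and 0.46 (SE 0.20, limma adjusted p = 0.241), and that of Fasn was -0.07 without library 1. Fads1, the partner desaturase of Fads2, was at 4289, 5242 and 4463 in saline controls, 5664, 5209 and 4148 in LPS controls and 4871, 5595 and 5883 in LPS-treated cKO mice, with overlapping groups and a log2 fold change of 0.10 (-0.24 to 0.43).

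**Figure D2:**
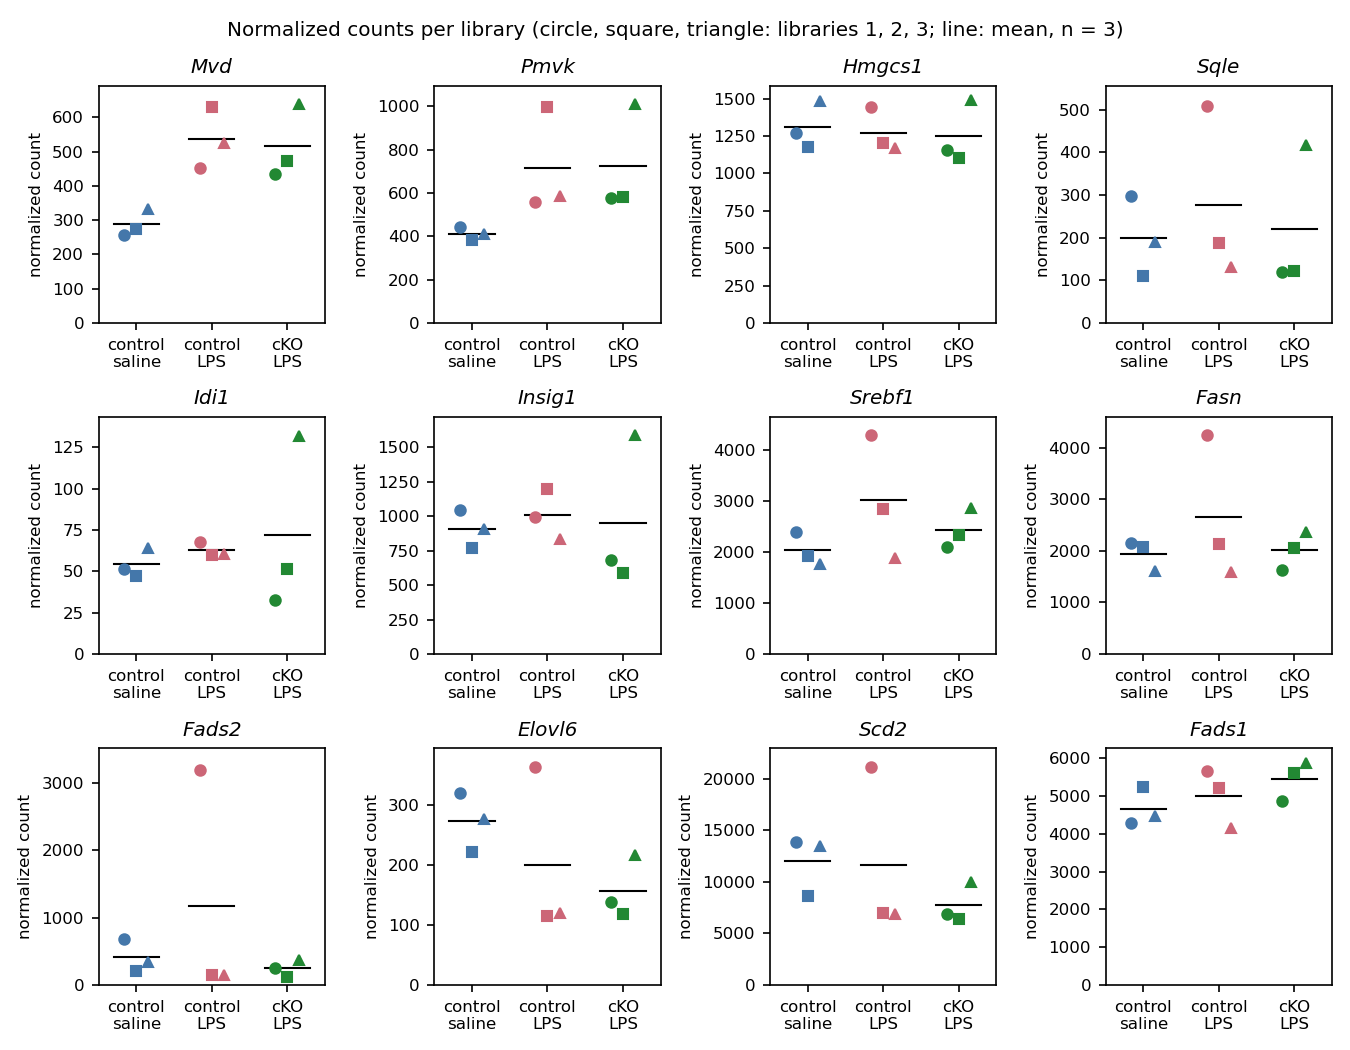
Normalized counts of 12 genes by group, with circles, squares and triangles for libraries 1, 2 and 3 of each group, and lines for the mean of 3; every axis starts at 0. Mvd is at 435 or more in all LPS libraries and at most 334 in saline, while the Fads2 mean of control LPS is set by library 1 at 3193.

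Markers of other cells moved with LPS beside these values. Of the marker genes tested, 11 of 11 for neutrophils and 7 of 10 for monocytes rose in control LPS against saline. So did 4 of 6 NK cell and cytotoxic genes and 11 of 14 for cell division, beside 4.68% of all tested genes called higher. The T cell genes Cd3e, Cd3d and Cd3g lay under the filter and were not tested. They were at 8.65 normalized counts or less in every library. Summed neutrophil markers were 818 to 1726 normalized counts in saline, 12463 to 102849 in control LPS and 25899 to 40759 in cKO LPS. Of the cKO LPS sums, Lcn2 alone gave 15019, 5463 and 25613 normalized counts. The mean log2(normalized count + 1) of the neutrophil markers was 9.57, 10.2 and 9.26 in the 3 cKO LPS libraries, lowest in library 3, which had the highest sum. For monocyte markers the sums were 2245 to 4909, 5505 to 28875 and 8449 to 19069, and for cell division genes 3592 to 4335, 6889 to 21272 and 13993 to 39981. The sums for NK and T cell markers were 120.4, 63.7 and 241 in saline, 575, 1309 and 4124 in LPS controls and 988, 1189 and 815 in cKO LPS. Ly6g, Ncr1, Cd3d and Cd3g were at 0 in 1 library each and Cd3e in 2. Mvd in control LPS was highest in library 2, the library with the largest neutrophil, monocyte and cell division sums (102849, 28875 and 21272). In cKO LPS Mvd was highest in library 3, which had the largest monocyte and cell division sums (19069 and 39981) of its group. That library had the lowest mean log2 level of neutrophil markers in its group, but library 1 had the lowest median (9.58 against 9.60). Of the 11 neutrophil markers, 7 were below both other cKO LPS libraries in library 1 and 3 in library 3. The part of these cells in the value of Mvd was not tested.

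Homeostatic microglia markers stood lower with LPS beside the same values. They summed to 810432, 921716 and 1227137 normalized counts in saline, 672237, 658179.8 and 774435 in LPS controls and 751459, 780836 and 624785 in cKO LPS, so that every LPS library was below every saline library. In control LPS against saline all 10 had a negative log2 fold change, with a median of -0.62. Of the 10, 8 were lower in every library, where 8.23% of all tested genes were. By limma 0 were called and 7 had an unadjusted p under 0.05, as 18.8% of all tested genes did. With edgeR 0 were called, and DESeq2 called 7 lower, beside 2.56% of all genes it tested. Their part in the values of the synthesis genes was not tested.

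The second comparison asked whether the astrocyte cKO of Chd8 altered these genes under LPS. None of the 31 passed limma's test, beside 0.00% of the 16575 tested genes, and none had an unadjusted p under 0.05, as 263 tested genes did. On recovered reads edgeR called 0 genes and DESeq2 called 4 (0.0246%), none of them among the 31, and the authors' deposited table likewise held 4 called genes (0.0176%), none of them a member. The median log2 fold change of the 31 was -0.10, against -0.02 over all tested genes. No gene was separated between the groups, where 5.01% of tested genes were (2.70% higher and 2.32% lower). A p above the threshold does not show equal levels, and the 95% interval lay within -1 and 1 for 23 of the 31 genes (74.2%), beside 61.0% of all tested genes.

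Mvd differed by -0.06 on the log2 scale between cKO LPS and control LPS, with a 95% interval of -0.53 to 0.40, and Pmvk by 0.02 (-0.61 to 0.64). Ggps1, at 1271, 1498 and 1373 normalized counts in saline controls, 1207, 1061 and 1329 in LPS controls and 1079, 1175 and 1088 in LPS-treated cKO mice, had a narrow interval of -0.38 to 0.18 around -0.10. Mvk was at 371, 216 and 420.3 in saline controls, 306, 367 and 301 in LPS controls and 375, 282 and 401 in LPS-treated cKO mice, with overlapping groups and a log2 fold change of 0.11 (-0.49 to 0.71). For Hmgcs1 the interval was -0.39 to 0.32, for Scap -0.37 to 0.19 and for Insig2 -0.29 to 0.34, so these were among the members with the tightest limits on a difference.

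Msmo1, a sterol methyl oxidase, was at 657, 513 and 1091 normalized counts in saline controls, 1140.0, 674 and 679.5 in LPS controls and 535, 572 and 881 in LPS-treated cKO mice. Control LPS library 1 was the highest of the 6 LPS libraries, and the log2 fold change was -0.32 (-1.05 to 0.41). Sc5d, a sterol desaturase, was at 724, 679 and 712 in saline controls, 710.3, 741 and 509 in LPS controls and 501, 453 and 771 in LPS-treated cKO mice. Its cKO LPS libraries 1 and 2 were the lowest of the 9, while cKO LPS library 3 was the highest, and the log2 fold change was -0.20 (-0.71 to 0.30). Wide intervals remained for Sqle (-1.78 to 1.09), Idi1 (-1.11 to 1.01) and Hsd17b7 (-1.07 to 0.85), for which a 2-fold difference lay inside the interval.

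Among the regulators the log2 fold changes were -0.24 for Srebf1 (-0.85 to 0.37), -0.12 for Srebf2 (-0.74 to 0.49) and -0.21 for Insig1 (-0.97 to 0.54). Acaca and Scd2 had the smallest p values of the fatty acid enzymes, at log2 fold changes of -0.23 (-0.68 to 0.21) and -0.40 (-1.33 to 0.54). For Fads2 the sign turned with control LPS library 1, as it did for 16 other members, from -0.91 (-3.30 to 1.49) with it to 0.55 without it. The median of all 31 genes was 0.03 without control LPS library 1, -0.37 without cKO LPS library 3 and -0.08 without both, and no member was called in any of these settings.

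**Figure D3:**
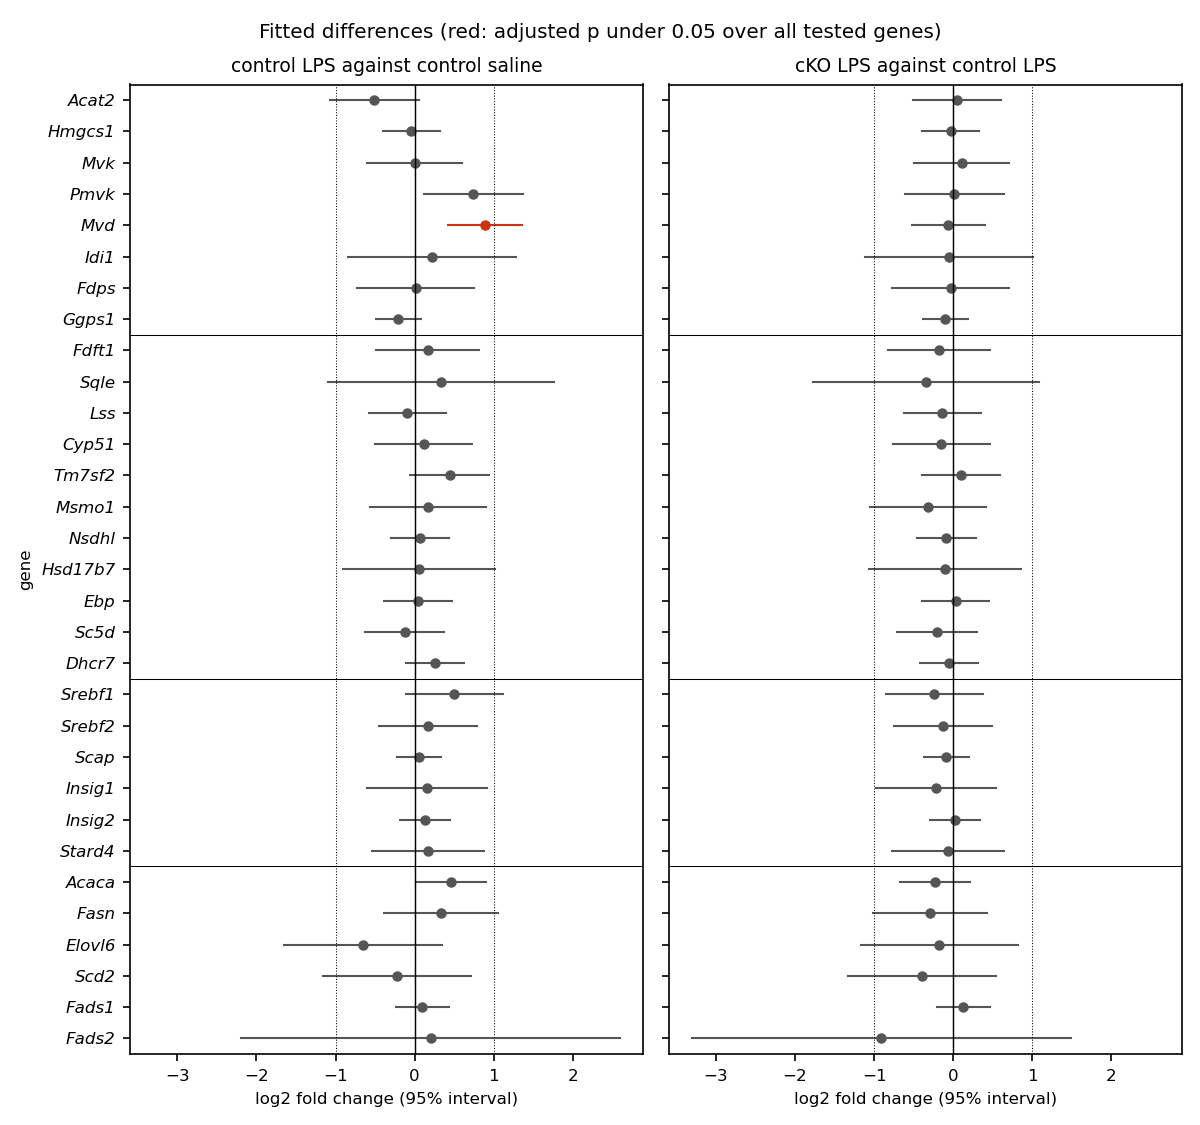
Log2 fold change with its 95% interval for each gene, control LPS against control saline on the left and cKO LPS against control LPS on the right, with dotted lines at -1 and 1. Mvd, in red, is the gene with adjusted p under 0.05 on the left; no gene is red on the right, and the widest intervals are those of Fads2 and Sqle.

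The third comparison, cKO LPS against control saline, shares its saline libraries with the first and its cKO libraries with the second. Of the 31 genes 1 rose, again Mvd, and none fell, beside 6.82% of tested genes called in either direction (5.41% higher and 1.41% lower). Mvd was 1.77-fold higher at a log2 fold change of 0.82 (SE 0.21, limma adjusted p = 0.0460), and the authors' deposited table gave 0.85 with an adjusted p of 0.00455. The call was lost in edgeR (adjusted p = 0.0594), with a pseudocount of 10 (0.0521), with no filter (0.0546), after quantile normalization (0.0761), and without any library other than control LPS 1 or 2, where the adjusted p reached 0.157. The median log2 fold change of the 31 was -0.02, against -0.01 over all tested genes.

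Pmvk, Mvd and Tm7sf2 were higher in every cKO LPS library than in every saline library, 3 of 31 where 17.9% of tested genes were. Ggps1 and Elovl6 were lower throughout, 2 of 31 where 13.8% were (31.7% either way). The log2 fold changes that did not pass were 0.76 (SE 0.28, limma adjusted p = 0.149) for Pmvk, 0.54 (SE 0.22, limma adjusted p = 0.192) for Tm7sf2 and -0.31 (SE 0.13, limma adjusted p = 0.193) for Ggps1. Elovl6 stood at -0.83 (SE 0.44, limma adjusted p = 0.311), and at -1.08 without control LPS library 1 and cKO LPS library 3, where it passed (limma adjusted p = 0.0430) and Mvd did not (0.0969), beside 6.47% of tested genes called. Sc5d, Insig2, Srebf1, Fads1 and Scd2 had log2 fold changes of -0.33, 0.15, 0.26, 0.23 and -0.62, none past the test.

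Beyond the group means, libraries of a group differed in these genes together. In cKO LPS library 3, 28 of the 31 genes (90.3%) exceeded both other cKO LPS libraries, where 39.8% of all tested genes did. The exceptions were Ggps1, Tm7sf2 and Scap. The genes above both included 7 of 8 of the mevalonate branch, 10 of 11 from squalene to cholesterol, 5 of 6 regulators and 6 of 6 fatty acid enzymes. The median log2 difference from the mean of the other cKO LPS libraries was 0.49. It was 1.78 for Sqle, 1.66 for Idi1, 1.32 for Insig1 and 1.15 for Fdps. These genes span the pathway from isoprenoid synthesis to its sterol-sensing anchor, and Idi1 and Insig1 are those whose promoters are shown above.

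Several marker lists moved with the same library. In cKO LPS library 3 all 10 oligodendrocyte markers, 7 of 8 oligodendrocyte precursor markers, 9 of 10 monocyte markers and 10 of 14 cell division genes were above both other cKO LPS libraries, and 9 of 10 homeostatic microglia, 8 of 8 choroid plexus and ependymal and 9 of 10 endothelial markers were below both. Summed oligodendrocyte markers were 28288, 23245 and 46485 normalized counts in cKO LPS, 59054, 29148 and 35180.3 in control LPS and 70225, 40156 and 69555 in saline. Summed cell division genes were 27326, 13993 and 39981 in cKO LPS, highest in library 3. It was also the most deeply sequenced of the 9. Their part in the higher synthesis genes was not tested. Astrocyte markers, by contrast, were lowest of the group there in their sum, at 10346, 9941 and 7028 for the 3 cKO LPS libraries.

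Control LPS library 1 had another profile. There 20 of the 31 genes (64.5%) exceeded both other control LPS libraries, where 37.9% of all tested genes did. These were 6 of 6 fatty acid enzymes, 9 of 11 from squalene to cholesterol, 3 of 8 of the mevalonate branch and 2 of 6 regulators. The log2 difference from the mean of libraries 2 and 3 was 4.36 for Fads2, 1.70 for Sqle, 1.62 for Elovl6, 1.61 for Scd2, 1.20 for Fasn and 0.89 for Srebf1. Mvd and Pmvk went the other way, lowest of the group in this library.

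In control LPS library 1 all 12 astrocyte markers were above both other control LPS libraries. Their sum was 116547 normalized counts there, against 6838 to 13162 in the other 8 libraries, and none of the 12 was at 0 in any library. All 10 oligodendrocyte, all 9 mural, all 8 choroid plexus and ependymal and 9 of 10 endothelial markers were above both neighbours too. All 11 neutrophil, all 10 monocyte and all 14 cell division genes were below both. The part of these cells in the higher fatty acid and sterol genes of the library was not tested. Other libraries differed from their groups in the opposite direction. In control LPS library 3, 20 of the 31 genes (64.5%) were below both other control LPS libraries, where 28.4% of all tested genes were, with a median log2 difference of -0.34 from their mean. In control saline library 2 it was again 20 of the 31, where 34.6% of all tested genes were, with a median of -0.22. Several marker lists were below both neighbours in the same libraries. In control LPS library 3 these were 9 of 10 endothelial and 7 of 9 mural markers, while 8 of 10 homeostatic markers were above. In control saline library 2 these were 10 of 10 endothelial, 9 of 9 mural and 9 of 10 oligodendrocyte markers. There 9 of 12 astrocyte and 9 of 10 monocyte markers were below too. In cKO LPS library 1, 10 of 10 endothelial markers were above both, where 17 of the 31 genes were below. In cKO LPS library 3, 9 of 10 were below both, where 28 of the 31 genes were above. Their part was not tested. Over all 9 libraries, control LPS library 1 gave the highest value for 13 of the 31 genes (41.9%, against 14.6% of all tested genes), and cKO LPS library 3 for 12 (38.7%, against 12.1%).

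**Figure D4:**
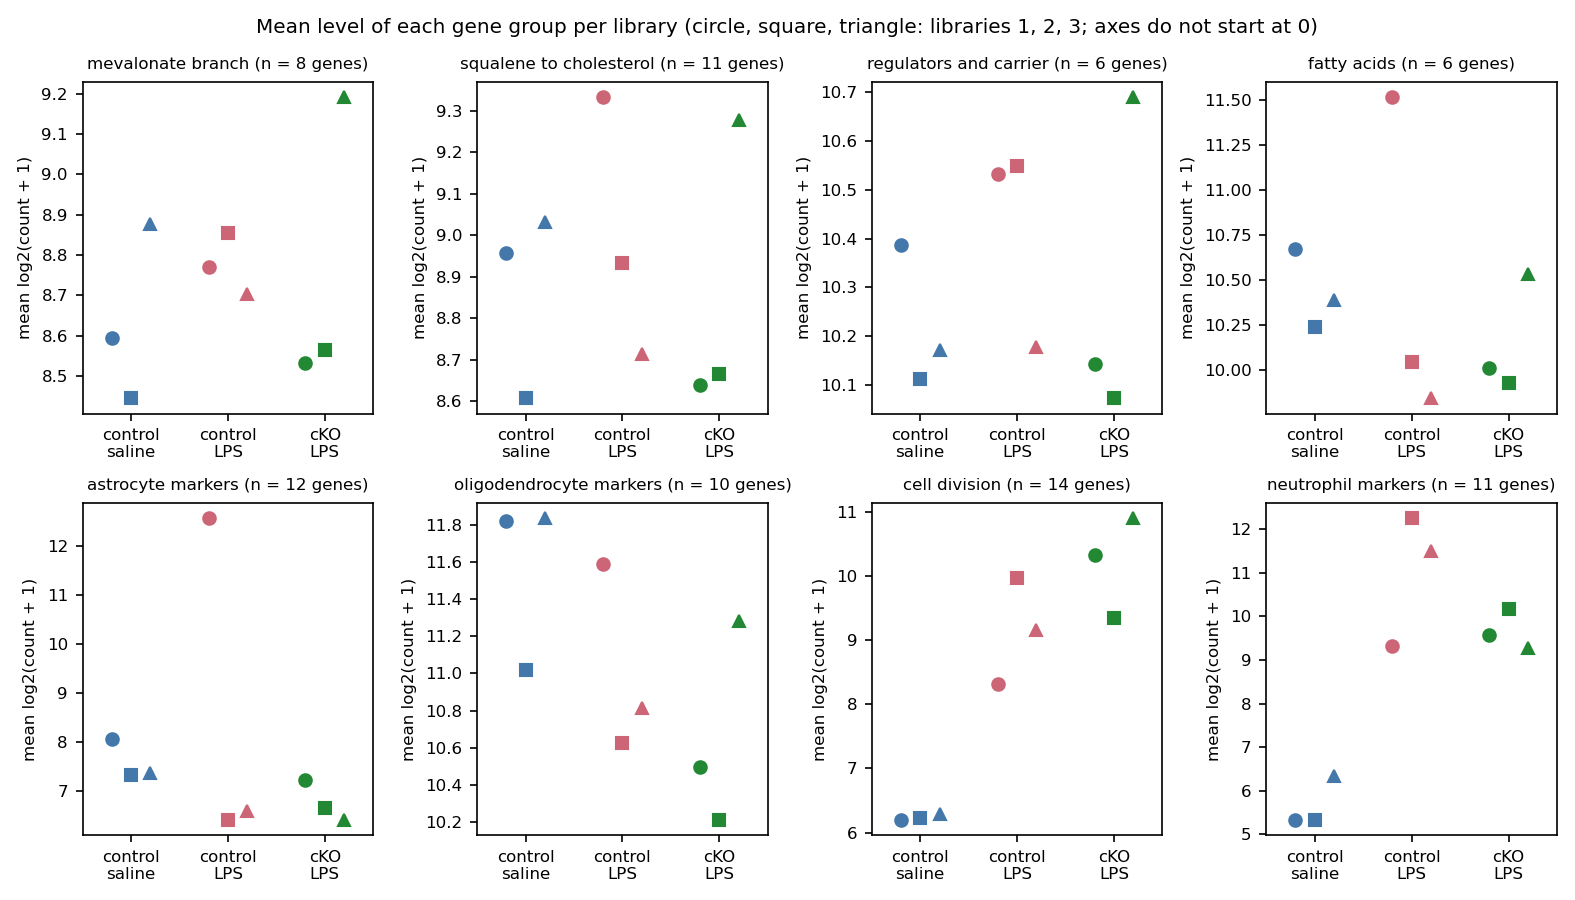
Mean log2(normalized count + 1) of the 4 gene groups and of marker lists for astrocytes, oligodendrocytes, cell division and neutrophils, 1 point per library. Control LPS library 1 has an astrocyte mean of 12.6 beside at most 8.06 elsewhere and the highest fatty acid mean, and cKO LPS library 3 is the highest cKO LPS library in all 4 gene groups.

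Other genes of sterol and lipid supply were read for comparison. Of 22 further genes of synthesis and uptake, none passed limma's test in any of the 3 comparisons. Their median log2 fold changes were 0.12 (control LPS against saline), -0.01 (cKO LPS against control LPS) and 0.13 (cKO LPS against saline). In that order 4, 0 and 4 of the 22 had an unadjusted p under 0.05, beside 18.8%, 1.59% and 21.8% of all tested genes. Of 13 genes for sterol sensing, efflux and storage, 3 rose in control LPS against saline, none passed between cKO LPS and control LPS, where none had an unadjusted p under 0.05, and 4 rose in cKO LPS against saline, while none fell by limma. The background of genes called higher was 4.68% and 5.41% against saline. Without control LPS library 1, 6 and 7 of the 13 rose, beside 8.07% and 7.54% of all tested genes. The medians of the 13 were 0.67, 0.06 and 0.75 in the same order. Mylip, an LXR-induced ubiquitin ligase that degrades the LDL receptor, was at 21992, 23238 and 17382 normalized counts in saline controls, 13611, 12090.3 and 15213 in LPS controls and 14093, 15721 and 11566 in LPS-treated cKO mice. Every LPS library was below every saline library, at log2 fold changes of -0.61 (SE 0.17, limma adjusted p = 0.0811) in control LPS and -0.60 (SE 0.17, limma adjusted p = 0.0745) in cKO LPS. The authors' deposited table called Mylip lower in both, at -0.61 (adjusted p = 0.0160) and -0.60 (adjusted p = 0.0178). DESeq2 on recovered reads also called it lower, beside 2.56% and 3.97% of all genes it tested. Of the 22 further genes, the authors' deposited table called Mid1ip1 lower in cKO LPS (-0.66, adjusted p = 0.0324).

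Ch25h, the enzyme that makes an oxysterol which restrains SREBP processing, was at 53.3, 56.8 and 48.1 normalized counts in saline controls, 242, 634 and 250.1 in LPS controls and 249, 135 and 278 in LPS-treated cKO mice. Every LPS library was above every saline library, and Ch25h rose by 6.31-fold in control LPS (limma adjusted p = 0.00786) and 3.95-fold in cKO LPS (0.0232). Nr1h3, encoding the oxysterol receptor LXR alpha, was at 149, 137 and 176 normalized counts in saline controls, 355, 375 and 538 in LPS controls and 337, 639 and 467 in LPS-treated cKO mice. It rose 2.70-fold in control LPS (limma adjusted p = 0.0168) and 3.02-fold in cKO LPS (0.00926). Soat1, which esterifies cholesterol for storage, was at 1853, 2109 and 1707 in saline controls, 3111, 4756 and 4334 in LPS controls and 3632, 4495 and 4916 in LPS-treated cKO mice. It rose 2.13-fold and 2.29-fold (limma adjusted p = 0.0103 and 0.00650).

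Abca1, the cholesterol efflux transporter, was at 13595, 19885 and 14282 normalized counts in saline controls, 23129, 27149 and 31960.1 in LPS controls and 31363, 39929.5 and 26069.8 in LPS-treated cKO mice. All LPS libraries were above saline, and it rose in cKO LPS, by 2.04-fold (limma adjusted p = 0.0254), with 0.79 (SE 0.22, limma adjusted p = 0.0761) on the log2 scale in control LPS. Leaving out 1 library ended the call of Nr1h3 in control LPS (saline 1 or 2, or control LPS 3), of Soat1 in control LPS (control LPS 3), of Ch25h in cKO LPS (any saline library, or cKO LPS 1 or 3) and of Abca1 in cKO LPS (saline 1 or 3, or cKO LPS 1 or 2). Those values lay above saline in the same LPS libraries in which the neutrophil and monocyte markers did, and the part of these cells in them was not tested.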

How the data were processed

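RNA of CD11b-sorted microglia was measured in 9 libraries, 3 per group, grouped by the genotype and treatment labels. For 23134 genes the authors deposited normalized signal, that is, read counts scaled by a size factor for each library. Their deposited comparison tables hold log2 fold changes, test scores with standard errors, and p-values. Trimmomatic, FastQC, STAR, featureCounts, RSEM, DESeq2, MultiQC 1.12, edgeR 3.30.3 and build mm10 are named, per the submitters' processing notes, with no role or annotation given in the sources used here. The library kit was stranded and selected poly(A) RNA, per the labels' protocols.

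In R 4.3.3, the limma 3.58.1 trend method was run on log2(value + 1) for the 16575 genes with a mean of at least 10, in 1 fit of all 9 libraries with 6 residual degrees of freedom. P-values were adjusted by Benjamini-Hochberg over all tested genes within each of 3 comparisons, with a threshold of 0.05. The pseudocount of 1 makes fold changes of low genes too small. All deposited values were whole multiples of the library's smallest step within 0.01 of a read, so counts were recovered (10845937 to 86571481 reads per library) and tested with edgeR 4.0.16 and DESeq2 1.42.0 as alternatives. On them, pairs of libraries within a group differed by more than sampling noise, with chi-square values of 35.2 to 196 per degree of freedom. Scripts were tested on simulated data.

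Gene positions and exon lengths came from GENCODE vM21 and promoter windows from RefSeq, both on GRCm38, the assembly of mm10. The members and gene lists were chosen with earlier results of these data known. Full values are given for a panel of 14 genes, for called genes and for the 2 genes of each role with the smallest p in each comparison. Mvk, Msmo1 and others entered by that rule; Fads2 was added after its values were seen. Replicate numbers paired the samples in cKO LPS against control saline by the correlation of deviations (0.242 to 0.387, all 3 pairs over 0.1). In each of the other comparisons 2 of the 3 pairs were over 0.1, which was not taken as pairing. Alternatives changed the pseudocount, the filter, the scaling, the tool, the weights, the block or the libraries used.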

Additional observations from a re-analysis of the deposited data

How the results depend on the processing

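No called log2 fold change of the 31 genes changed sign in the 21 alternatives, and the medians over the 31 moved by less than the spread between libraries in all of them. That spread includes control LPS library 1 and cKO LPS library 3. In cKO LPS against control LPS the median of -0.10 became 0.03 without control LPS library 1 and -0.37 without cKO LPS library 3. The count of genes called moved with the setting. In control LPS against saline it was 1, and became 0 with the 6 libraries alone, after quantile normalization and with edgeR, 2 with array weights (Mvd higher, Elovl6 lower) and 0 to 2 when 1 library was left out. It was 3 without control LPS library 1 and cKO LPS library 3, an alternative chosen after seeing the data. In cKO LPS against saline it was 1, and became 0 with a pseudocount of 10, without a filter, after quantile normalization and with edgeR, 3 with array weights (Mvd higher, Elovl6 and Scd2 lower) and 0 to 1 when 1 library was left out. In cKO LPS against control LPS it was 0 in every setting run. The causes were not tested. Over all tested genes the counts ran from 374 (without control LPS library 3) to 2789 (array weights) in the first of these comparisons, and from 490 (without cKO LPS library 3) to 3182 (array weights) in cKO LPS against saline, with 0 to 4 in cKO LPS against control LPS.

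With the replicate number as a block, the counts among the 31 genes were 1, 0 and 1 and no call changed, with 926, 0 and 1286 genes called in all. Mvd had adjusted p of 0.0323 and 0.0345 under the block against saline. In the other comparisons same-numbered samples had correlations of 0.0785 to 0.370 (control LPS and saline) and -0.0660 to 0.468 (cKO LPS and control LPS). In each of these 2 of the 3 pairs were over 0.1. With 3 libraries per group, and 20 reads for Idi1 in the shallowest, the 95% intervals give the precision of each value.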
